A study of Mus musculus with 6 samples.

Results

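Integrins are paired surface receptors, each made of 1 alpha and 1 beta chain, that hold lymphocytes to vessel walls, to other cells and to matrix. A chain reaches the cell surface only with a partner, and several chains share partners. Itgb7 pairs with Itga4, giving a receptor for the addressin Madcam1 and for Vcam1, and with Itgae (CD103), giving a receptor for E-cadherin on epithelium. Itgb1 pairs with Itga4, Itga1 and Itgav. Itgal pairs with Itgb2 to bind the intercellular adhesion molecules, and Itgav pairs also with Itgb3 and Itgb8 to bind matrix proteins and latent TGF-beta.

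The transcripts of 10 leukocyte integrin chains, 5 alpha and 5 beta, were followed by symbol among 52636 genes in RNA sequencing of cells labelled innate lymphoid cells (ILCs), lymphocytes without rearranged antigen receptors. They came from lungs of wild-type C57BL/6 mice that carried the 4get green fluorescent protein reporter of Il4. All mice had received 500 ng of interleukin-33, an alarmin that activates group 2 ILCs (ILC2), into the peritoneum for 4 days, and were killed on day 5. Both sorted populations were lineage-negative and CD90-positive, and their stated purity was above 90%. They differed in KLRG1: 3 libraries were KLRG1-negative and 3 KLRG1-positive (KLRG1-high in the protocol), named negative and positive libraries here. KLRG1 is an inhibitory receptor of mature lymphocytes. The labels call only the KLRG1-positive cells ILC2, and do not say whether libraries of a group came from separate or pooled mice, so p-values cover only sample-to-sample spread, possibly technical. The chains were chosen by their levels in this comparison, in which Itgb7 and Itgae had been seen to stand apart in opposite directions. Their differences between the populations are therefore a description, with no test.

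Libraries held 17323004 to 23946073 assigned counts. Levels are CPM, assigned counts scaled to a common library total after TMM scaling, and levels of different genes are set side by side only as CPM per kilobase of exon. Klrg1 stood at 13.1 to 193 CPM in the negative and 1327 to 1786 CPM in the positive libraries. The sorts differed in more than KLRG1. The 12 ILC2 markers summed to 1786 to 4331 CPM in the negative and 6929 to 8244 CPM in the positive libraries. The 10 T cell markers summed to 1324 to 4842 against 490 to 625 CPM, the 8 B cell markers to 7317 to 28489 against 2453 to 8487 CPM, and the 7 fibroblast markers to 3860 to 10794 against 17.7 to 47.6 CPM. Of these markers 5 fibroblast genes, Col3a1 and Dcn among them, and 1 T cell gene passed as lower, and none of the ILC2 or B cell markers (edgeR; 4 ILC2 markers higher and 8 B cell markers lower at an unadjusted p under 0.05, 3 and 5 by DESeq2). Over all genes DESeq2 called 350 higher and 1609 lower, where edgeR called 19 and 184. The most abundant were Arg1 and Il7r for ILC2, Cd3g and Lat for T cells and Ighm and Igkc for B cells. Cd3g averaged 456 CPM in the negative and 237 CPM in the positive libraries, and Lat 371 against 196 CPM. Other T cell genes differed more: Cd3e averaged 395 against 20.1, Trac 515 against 33.4 and Cd8a 394 against 17.7 CPM. The median log2 fold change of the 9 tested T cell markers was -3.94. In bulk RNA fewer cells of a type and less RNA per cell cannot be told apart. The name ILC follows the labels. T cell, B cell and fibroblast genes had counts in both sorts, and the B cell sums overlapped between them. Which cells gave these counts was not tested.

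**Figure D1:**
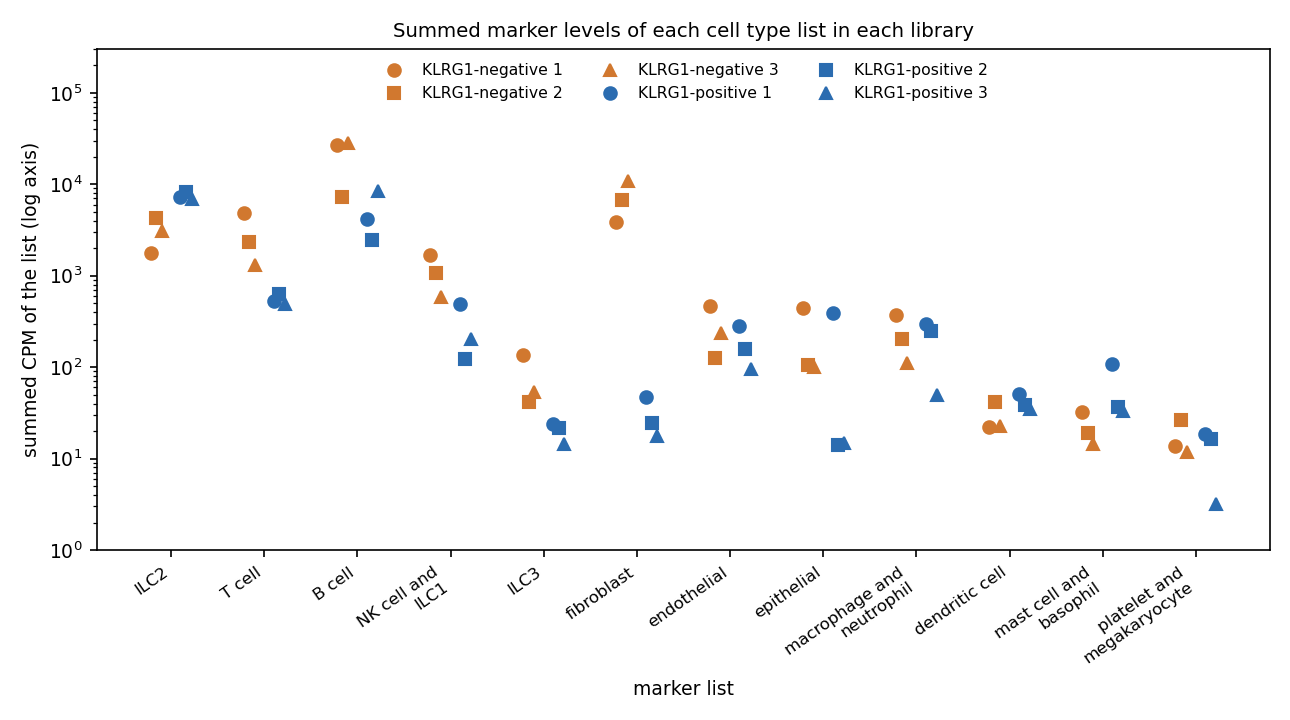
Summed CPM of each marker list (y axis, log scale) in each library, coloured by sort, with the symbol giving the library number. ILC2 sums lie at 6929 CPM or more in the positive libraries, and fibroblast sums at 47.6 CPM or less there.

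Per kilobase of exon Itgb7 was the most abundant of the 10 chains in all 6 libraries, and its partner Itgae differed in the opposite direction. Itgb7 (ENSMUSG00000001281, GRCm38 chromosome 15, 102215995 to 102231935, minus strand) stood at 1817, 1965 and 1653 CPM in negative libraries 1, 2 and 3 and at 3368, 4097 and 3884 CPM in the positive ones. The groups did not overlap, and libraries within a group differed at most 1.22-fold. The means were 1812 ± 156 and 3783 ± 375 CPM (SD, n = 3), a 2.09-fold difference (log2 fold change 1.06 ± 0.16 SE). ILC2 markers also summed higher in the positive libraries, and the part of cell make-up in the Itgb7 difference was not tested. By CPM per kilobase Itgb7 ranked 23 in the negative and 10 in the positive population among 16089 protein-coding genes with a count.

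Itgae (ENSMUSG00000005947, chromosome 11, 73090583 to 73147446, plus strand) stood at 174, 294 and 171 CPM in the negative and at 61.8, 47.2 and 55.7 CPM in the positive libraries. Here every positive library lay below every negative one, and negative library 2 was the highest. The means were 213 ± 69.9 and 54.9 ± 7.34 CPM (SD, n = 3), 3.88-fold lower in the positive population (log2 fold change -1.96 ± 0.28 SE). T cell markers also summed lower in the positive libraries. Their sums were 4842, 2353 and 1324 CPM in negative libraries 1, 2 and 3 and 526, 625 and 490 CPM in the positive ones. Some T cells also express Itgae, and their part in the difference was not tested. The 7 dendritic cell markers, another cell type that can carry Itgae, summed to 22.3 to 41.5 CPM in the negative and 35.1 to 50.5 CPM in the positive libraries. Xcr1, the most abundant of them and a marker of the dendritic cells that carry CD103, stood at 11, 13.9 and 11.6 CPM in the negative and 45.2, 31.8 and 21.3 CPM in the positive libraries, while Clec9a, another, reached at most 0.282 CPM. The part of these cells was not tested. The gene Haspin lies inside Itgae on the opposite strand but shares 0 exon bases with it.

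Itga4 (ENSMUSG00000027009, chromosome 2, 79255426 to 79333123, plus strand), the other partner of Itgb7, stood at 290, 226 and 145 CPM in the negative and at 579, 362 and 311 CPM in the positive libraries. The groups did not overlap, though negative library 1 came close to positive library 3. As for Itgb7, the ILC2 markers summed higher in the same libraries, and their part in the Itga4 difference was not tested. The means were 221 ± 72.7 and 417 ± 142 CPM (SD, n = 3; log2 fold change 0.92 ± 0.35 SE). Exons of Cerkl on the opposite strand cover 8.04% of the Itga4 exon bases, and reads there cannot be assigned without strand.

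Promoter sequences are shown for Itgb7 and Itga4, the pair of partner chains that both stood higher in all positive libraries. The RefSeq table (GRCm38.p6) held 6 of the 10 chains, and not Itgae, Itgal, Itgb2 or Itgb3. The 250 bases before the start of Itgb7 are at chr15:102231936-102232185, minus strand, and those of Itga4 at chr2:79255176-79255425, plus strand. By the GENCODE M21 models 9 bases of the Itgb7 window, and 0 of the Itga4 window, lie in exons of the gene itself. Both strands were searched, after the levels were known, for TGTGGT (RUNX factors), AGATAA and, for the same family, TGATAA (both GATA factors), CAGACA (SMAD factors) and CAGGAAGT (ETS factors), with matches in capitals.
Itgb7: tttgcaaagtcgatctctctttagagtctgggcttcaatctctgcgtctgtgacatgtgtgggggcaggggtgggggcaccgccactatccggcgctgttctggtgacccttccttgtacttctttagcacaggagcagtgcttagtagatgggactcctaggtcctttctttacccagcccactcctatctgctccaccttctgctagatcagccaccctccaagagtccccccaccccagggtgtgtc
Itga4: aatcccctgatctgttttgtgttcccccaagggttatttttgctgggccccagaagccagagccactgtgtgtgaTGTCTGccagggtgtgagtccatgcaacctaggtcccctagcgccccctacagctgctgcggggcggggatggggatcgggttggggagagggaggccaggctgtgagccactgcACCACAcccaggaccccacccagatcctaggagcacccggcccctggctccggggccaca
The Itgb7 window held none of these letters, which says nothing about the factors. The Itga4 window held 1 RUNX match and 1 SMAD match, both on the opposite strand, beginning 60 and 175 bases before the start. Of all 32851 windows of this length, 14% held the RUNX letters, 16.6% the GATA letters, 17.1% the SMAD letters and 2.69% the ETS letters. The windows were 56.0% (Itgb7) and 64.0% (Itga4) G or C.

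**Figure D2:**
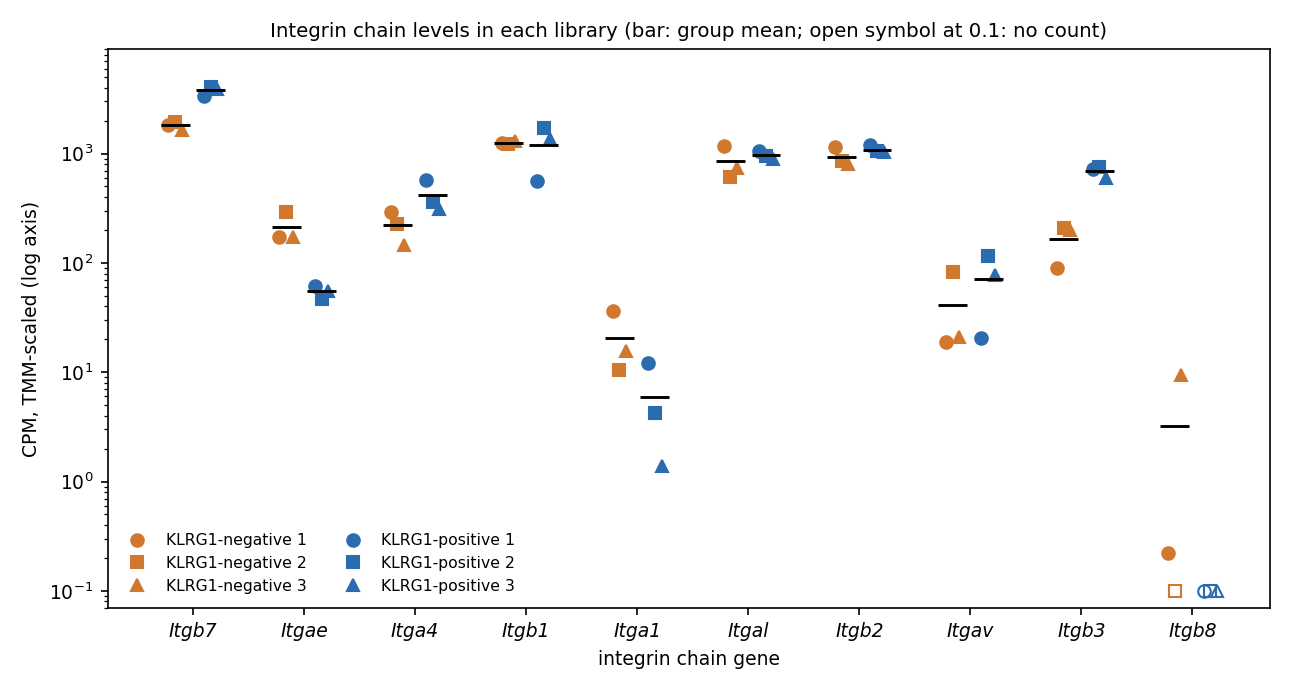
CPM of the 10 integrin chains in each library (y axis, log scale), with colours for the sorts, symbols for the library number and bars for group means; open symbols at 0.1 CPM mark libraries with no count. Itgb7, Itga4 and Itgb3 have all positive libraries above all negative ones, and Itgae all below.

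The 2 alpha partners of Itgb7 changed places between the sorts. Per kilobase of exon, Itgae was 1.83, 3.96 and 3.60 times the level of Itga4 in the negative libraries and 0.326, 0.398 and 0.547 times in the positive ones. The mean log2 ratio was 1.57 ± 0.61 and -1.27 ± 0.38 (SD, n = 3), a difference of -2.84 (-3.19 to -2.63 over the alternatives tried). The difference between the sorts does not depend on gene length, but the crossing does. The deposited length of Itga4, 13978 bases, counts every annotated exon and is 1.43 times its longest coding transcript. With the longest coding transcript as the length, a choice made after seeing the data, the mean log2 ratios were 1.30 and -1.54. With no length scaling they were -0.04 and -2.88, so that the negative libraries held about equal reads of both.

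Against their shared beta partner, the Itgae ratio separated the sorts and the Itga4 ratio did not. Itgb7 exceeded Itgae 17.4-, 11.2- and 16.1-fold per kilobase in the negative and 91.0-, 145- and 117-fold in the positive libraries. The mean log2 ratio of Itgae to Itgb7 was -3.87 ± 0.34 and -6.85 ± 0.34 (SD, n = 3), a difference of -2.98. For Itga4 the same ratio to Itgb7 was -5.44 ± 0.43 and -5.58 ± 0.60, with overlapping groups and a difference of -0.14, less than the spread within either group.

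**Figure D3:**
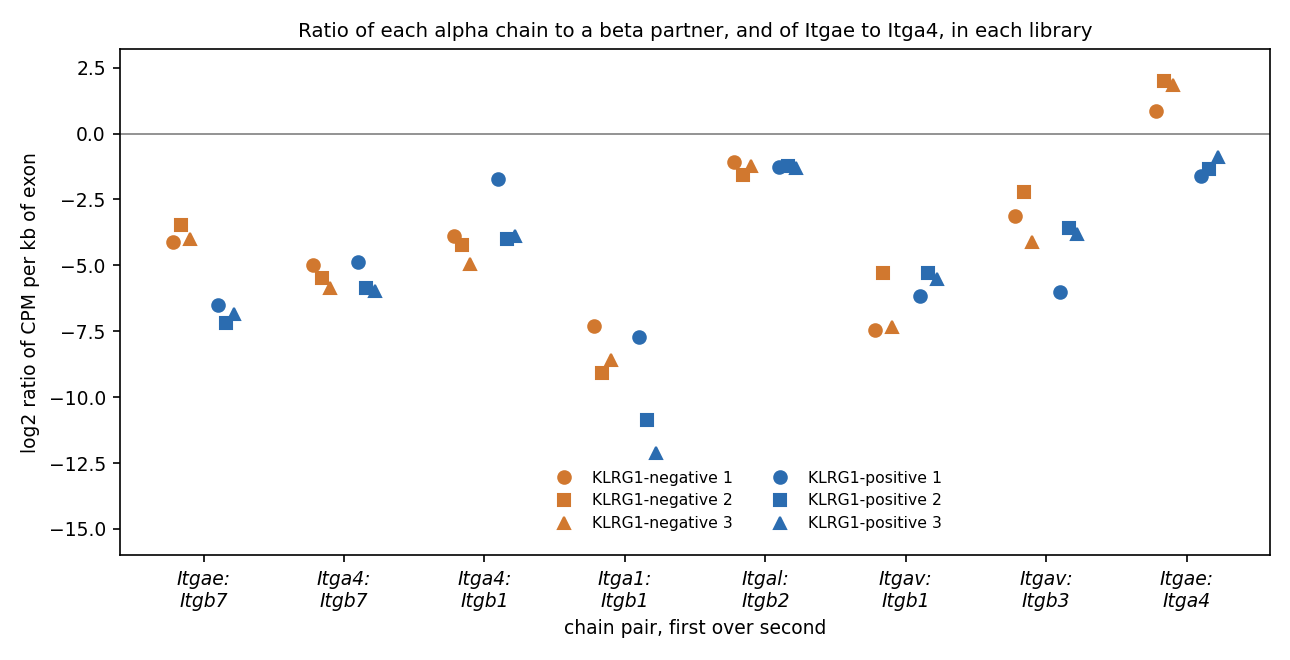
Log2 ratio of CPM per kilobase of exon for each chain pair in each library (y axis), coloured by sort with symbols for the library number; 0 means equal levels. The sorts separate in the ratios of Itgae to Itgb7 and of Itgae to Itga4, and overlap in the other 6 pairs.

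Itgb3 stood higher in the positive population by the widest margin among the chains that did so. Itgb3 (ENSMUSG00000020689, chromosome 11, 104608000 to 104670476, plus strand) stood at 89.3, 210 and 201 CPM in the negative and at 722, 756 and 603 CPM in the positive libraries. The groups were far apart, and negative library 1 was the lowest of the 6. The means were 167 ± 67.2 and 694 ± 80.4 CPM (SD, n = 3; 4.16-fold, log2 fold change 2.06 ± 0.35 SE). Platelets and megakaryocytes are the best known source of Itgb3. Their 6 markers summed to 11.9 to 26.5 CPM in the negative and 3.15 to 18.4 CPM in the positive libraries. Itga2b, the platelet partner of Itgb3, averaged 12.4 against 4.17 CPM, the chemokines Pf4 and Ppbp went the other way at 1.65 against 2.52 CPM and 2.82 against 4.88 CPM, and the median log2 fold change of the 3 tested markers was 0.61. Mast cells also express Itgb3. The 6 mast cell and basophil markers summed to 14.5 to 32.3 against 32.8 to 108 CPM, most of it Cpa3 in the positive libraries, at 12.5, 2.68 and 8.27 against 90.6, 34.1 and 29.7 CPM. Fcer1a averaged 2.30 against 6.96 CPM, while Mcpt8 averaged 7.53 against 0.489, Ms4a2 3.26 against 0.0563 and Cma1 1.03 against 0.332 CPM, and Mcpt4 had no count in any library. The median log2 fold change of the 4 tested markers was -0.01. ILC2 markers summed to 1786, 4331 and 3123 CPM in the negative and 7216, 8244 and 6929 CPM in the positive libraries. The part of any of these cell types in the Itgb3 difference was not tested.

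Itgav (ENSMUSG00000027087, chromosome 2, 83724397 to 83806916, plus strand), the partner of Itgb3, did not separate the sorts. It stood at 18.9, 82.8 and 21.1 CPM in the negative and at 20.5, 116 and 77.9 CPM in the positive libraries. The library numbered 1 was the lowest and that numbered 2 the highest in both sorts (log2 fold change 0.80 ± 0.81 SE). Per kilobase, Itgb3 exceeded Itgav 8.63-, 4.61- and 17.3-fold in the negative and 64.2-, 11.9- and 14.1-fold in the positive libraries, so the ratio overlapped between sorts. Exons of Gm13684 on the opposite strand cover 5.90% of the Itgav exon bases.

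Itgb8 (ENSMUSG00000025321, chromosome 12, 119158022 to 119238802, minus strand), which with Itgav releases active TGF-beta, had 197 of its 201 counts in 1 library. It had 4, 0 and 197 counts in negative libraries 1, 2 and 3 and 0 counts in all 3 positive libraries. It was the only one of the 10 that did not pass the filter on low counts. Against a floor of 3 counts over the positive group (0.0508 CPM), it was at least 61.6-fold lower there, a bound that rests on negative library 3: the other 2 held 4 counts together. In that library the fibroblast list, at 10794 CPM, and the B cell list, at 28489 CPM, had their highest sums, and their part was not tested.

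Itgal and Itgb2, which together form a leukocyte receptor for intercellular adhesion molecules, stood at similar levels in both sorts. Itgal (ENSMUSG00000030830, chromosome 7, 127296260 to 127335138, plus strand) stood at 1183, 617 and 739 CPM in the negative and at 1061, 955 and 889 CPM in the positive libraries. Itgb2 (ENSMUSG00000000290, chromosome 10, 77530252 to 77565708, plus strand) stood at 1155, 850 and 804 CPM and at 1197, 1045 and 1025 CPM. The groups overlapped for both genes, with log2 fold changes of 0.19 ± 0.27 and 0.22 ± 0.20 SE. Negative library 1 was the highest of its group in both genes, and it also had the highest T cell sum, whose part was not tested. The ratio of Itgal to Itgb2 was the steadiest of all pairs. Its mean log2 value was -1.29 ± 0.25 in the negative and -1.28 ± 0.04 in the positive population (SD, n = 3), or 2.10 to 2.97 Itgb2 transcripts per Itgal transcript by this length scaling.

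Itgb1 and Itga1, which form a receptor for collagen and laminin, had overlapping levels in the sorts. Itgb1 (ENSMUSG00000025809, chromosome 8, 128685654 to 128733200, plus strand) stood at 1255, 1227 and 1297 CPM in the negative and at 566, 1705 and 1351 CPM in the positive libraries. Positive library 1 stood apart below the other 5, and the log2 fold change of -0.06 ± 0.39 SE became 0.29 without it. Itga1 (ENSMUSG00000042284, chromosome 13, 114953096 to 115101964, minus strand), which marks ILC1 and resident lymphocytes, stood at 36.4, 10.4 and 15.5 CPM in the negative and at 12.1, 4.22 and 1.38 CPM in the positive libraries. These groups overlapped (log2 fold change -1.81 ± 0.89 SE). The 9 NK cell and ILC1 markers summed to 588 to 1681 CPM in the negative and 122 to 496 CPM in the positive libraries, highest in library 1 of each sort, as was Itga1. Their part in its level was not tested.

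The order of the chains by CPM per kilobase was fixed at the top and changed in the middle. Among alpha chains Itgal led in both sorts, at 93.9 to 180 in negative and 135 to 161 in positive libraries, and its range did not meet that of the next chain. In negative libraries Itgae followed at 37.4 to 64.1 and Itga4 at 10.4 to 20.8. In positive libraries Itga4 followed at 22.2 to 41.4 and Itgae at 10.3 to 13.5, the latter overlapping Itgav at 1.91 to 10.8. Itga1 was the lowest alpha chain in both, with a range that overlapped that of Itgav in the negative libraries. Among beta chains Itgb7 led, Itgb1 and Itgb2 overlapped each other in both sorts, and Itgb3 lay below them at 15.1 to 35.5 in negative and 102 to 128 in positive libraries.

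Summed over the 5 chains, the 2 classes parted. Alpha chains summed to 243, 182 and 163 CPM per kilobase in the negative and 219, 193 and 177 in the positive libraries, with overlapping groups. Beta chains summed to 1364, 1331 and 1219 and to 1881, 2382 and 2185, without overlap. Itgb7 made up 48.6 to 53.8% of the beta sum in the negative and 62.7 to 65.3% in the positive libraries. Itgae made up 15.7 to 35.2% and 5.35 to 6.86% of the alpha sum, and Itgal 51.4 to 74.2% and 73.7 to 76.5%.

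**Figure D4:**
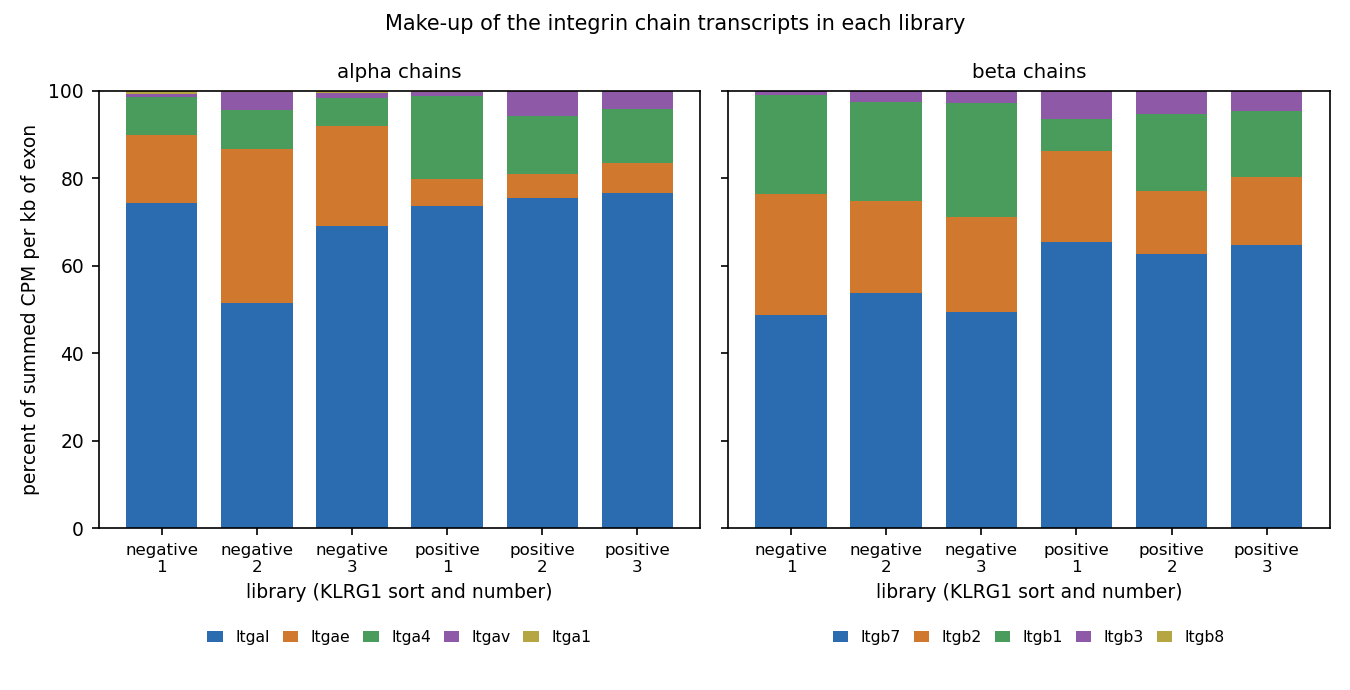
Share of each chain in the summed CPM per kilobase of the 5 alpha chains (left) and 5 beta chains (right), 1 bar per library, y axis in percent. The Itgae segment is at most 6.86% in the positive libraries, and the Itgb7 segment at least 62.7%.

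Of the 10 chains, 9 entered the fit across 15197 genes (edgeR quasi-likelihood, Benjamini-Hochberg adjustment, threshold 0.05). Itgb7 was among the 19 genes called higher and Itgae among the 184 called lower, where 1.34% of genes were called in all. Since this contrast chose the chains, nothing is read from that count or from the counts and calls of chains that follow. Groups did not overlap for 3 chains with the positive libraries higher (9.46% of genes tested) and for 1 with them lower (15.2%), together 4 of 10 chains against 24.6% of genes. At an unadjusted p under 0.05, 3 chains were higher (4.19% of genes) and 1 lower (11.5%). The log2 fold change was positive for 6 of the 9, and for 46.5% of genes. The median log2 fold change of the 9 was 0.22, and of all genes tested -0.05. With the replicate number as a block 0 chains were called (edgeR; 0.349% of genes; 3 higher and 2 lower at an unadjusted p under 0.05), while DESeq2 called Itgb7 and Itgb3 higher and Itgae lower (350 higher and 1609 lower over all genes). Without negative library 1 the only call was Itgb3, and without any other single library there was none. The log2 fold changes of Itgb7 (1.01 to 1.23), Itgae (-2.18 to -1.45), Itga4 (0.62 to 1.20) and Itgb3 (1.74 to 2.39) kept their sign in all 15 fits.

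The genes whose log2 CPM over the 6 libraries was most like that of Itgb7 among 9527 others were Ccdc69 (Pearson r = 0.994), Unc119b (0.993), Med11 (0.992), Slc52a3 (0.990), a riboflavin transporter, and Acadvl (0.987), a mitochondrial enzyme of fatty acid oxidation. Those most like Itgae were Tnxb (0.990), which encodes the matrix protein tenascin X, Fez2 (0.987), Phf11d (0.986), Ccdc125 (0.984) and Dennd3 (0.984). These values describe 6 libraries that share 2 sorts, and all 10 of these genes had groups that did not overlap. Tnxb stood at 13.7, 38.0 and 17.9 CPM in the negative and 0.338, 0.107 and 0.133 CPM in the positive libraries. All 5 genes most like Itgae were highest in negative library 2, as Itgae was. That shared peak and the separated groups follow largely from picking the genes by correlation.

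The rest of the adhesion system was read from 6 lists with 109 genes, of which 97 were tested, 0 passed as higher (edgeR, 0.125% of all genes) and 5 as lower (1.21% of all genes). At an unadjusted p under 0.05, 4.19% of all genes were higher and 11.5% lower. DESeq2, fitted to the 26868 genes with a count, called 350 higher and 1609 lower, so its list counts compare with these and not with the edgeR shares. The 5 calls depended on which library was left out: without negative or positive library 2 or 3, 0 of them passed, without negative library 1 Vcam1 did not, and without positive library 1 only Col1a1 and Fbn1 did. The 17 other integrin chains are mostly those of platelets, myeloid cells, epithelium and matrix-bound cells. Of 13 tested, 0 passed (edgeR; 1 higher and 5 lower at an unadjusted p under 0.05; DESeq2 called 5 lower), and 12 had negative log2 fold changes, with a median of -1.58 against -0.05 over all genes. Their summed level was small, 153 to 194 CPM in the negative and 62.3 to 95.7 CPM in positive libraries. The most abundant were Itga2, at 16.3 ± 6.43 against 33.9 ± 7.14 CPM, the 1 member with a positive value, and Itga6, at 30.0 ± 10.9 against 8.49 ± 2.77 CPM (SD, n = 3).

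Of the ligands of the 10 chains, Vcam1, Fbn1 and Col1a1 fell. Of 21 tested, 3 fell in the positive population and 18 did not pass (edgeR), with a median of -2.21. At an unadjusted p under 0.05, 0 were higher and 11 lower, and DESeq2 called 0 higher and 9 lower. Vcam1, the ligand of both Itga4 receptors, averaged 48.1 ± 26.2 CPM in the negative and 3.27 ± 1.46 CPM in the positive population (log2 fold change -3.88 ± 0.58 SE, edgeR adjusted p = 0.0451). Fbn1, a microfibril protein bound through Itgav, averaged 78.6 ± 26.1 against 0.244 ± 0.121 CPM (-8.31 ± 0.54, edgeR adjusted p = 0.0102), and Col1a1, a fibrillar collagen chain, 778 ± 424 against 1.02 ± 0.657 CPM (edgeR adjusted p = 0.0217). With the block Fbn1 still passed (edgeR adjusted p = 0.0422) and Vcam1 and Col1a1 did not (0.0898 and 0.0680). All 3 are made by stromal cells, and Col1a1 is also on the fibroblast list, which summed to 3860 CPM or more in each negative library; the part of those cells was not tested. Icam1, which Itgal and Itgb2 bind, stood at 202, 175 and 164 against 151, 124 and 106 CPM and did not pass in edgeR or DESeq2. Cdh1, the E-cadherin bound by the Itgae receptor, stood at 14.7, 11 and 18.1 against 12.9, 2.78 and 2.44 CPM. Its groups overlapped, and it did not pass in edgeR or DESeq2. Madcam1 had no count in negative libraries and at most 0.311 CPM in the others.

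None of the genes that switch integrins on, or that signal from them, passed. Of 22 tested activation genes and 23 tested adhesion complex genes, 0 passed (edgeR). At an unadjusted p under 0.05 the activation list had 1 gene higher and 1 lower and the adhesion list 0 higher and 4 lower, in each list as many as DESeq2 called. Their medians, -0.07 and -0.09, were close to the -0.05 of all genes. Flna, an actin crosslinker that holds beta chain tails, averaged 1430 ± 386 against 1684 ± 267 CPM, and Tln1, the talin that switches integrins on, 662 ± 244 against 733 ± 112 CPM (SD, n = 3). Among adhesion complex genes Actn4 averaged 628 ± 60.2 against 771 ± 67.4 CPM and Zyx 684 ± 109 against 652 ± 120 CPM. Fermt3, the kindlin of blood cells, named after its values were seen, stood at 467, 440 and 515 CPM in the negative and 803, 861 and 760 CPM in the positive libraries without overlap, and missed the threshold (log2 fold change 0.77 ± 0.15 SE, edgeR adjusted p = 0.0702), while DESeq2 called it.

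Among carriers and receptors of TGF-beta, Ltbp4, which tethers latent TGF-beta to matrix, fell. Of 9 tested genes of this list, whose median was -2.29, only Ltbp4 passed, from 125 ± 82.0 to 2.44 ± 1.11 CPM (edgeR adjusted p = 0.0449, and 0.0422 with the block). Nrros, the carrier of leukocytes, stood at 212, 173 and 259 against 346, 438 and 360 CPM, named after its values were seen, and did not pass in edgeR but did in DESeq2. At an unadjusted p under 0.05 the list had 1 gene higher and 4 lower, as many as DESeq2 called among the tested genes. DESeq2 also called Ltbp2 lower, which did not pass the filter on low counts. The fibroblast markers were lower in the same libraries, Dcn among them at 728, 1869 and 2029 against 6.70, 7.42 and 1.69 CPM, and their part in the Ltbp4 difference was not tested.

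**Figure D5:**
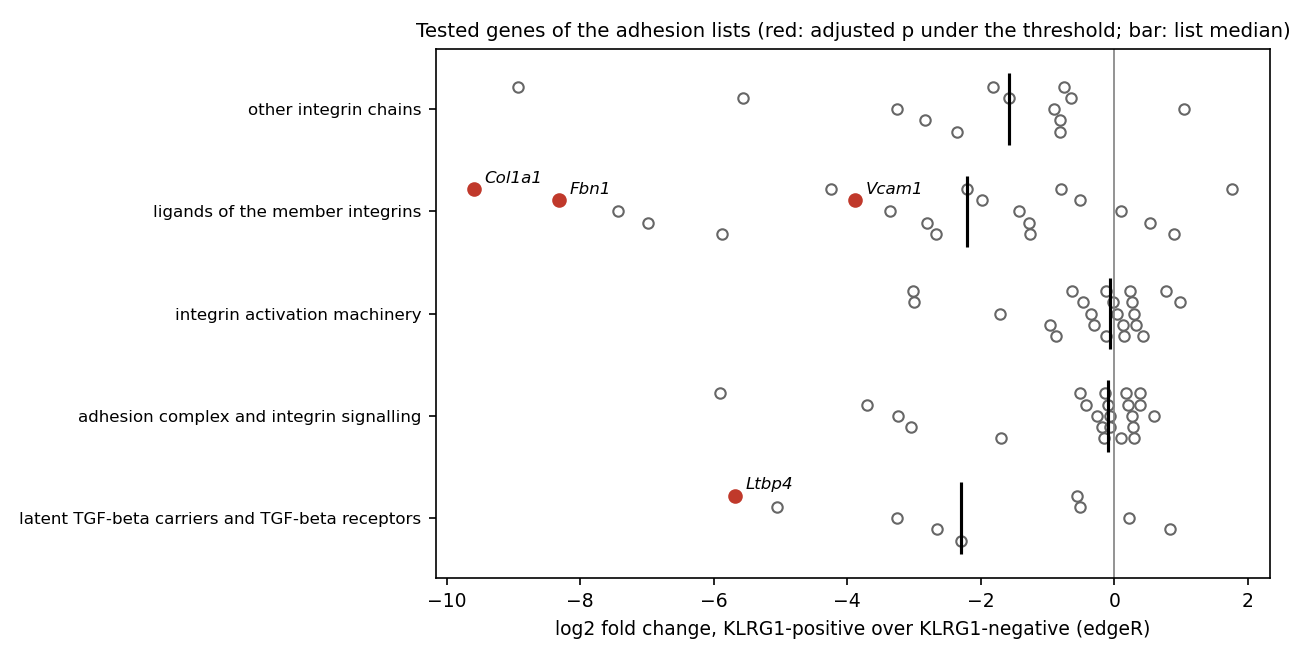
Log2 fold change, positive over negative (x axis, edgeR), of every tested gene in 5 adhesion lists (rows), with red points past the threshold and bars at list medians. All 4 points past the threshold lie to the left, and the medians of the activation and adhesion complex lists lie near 0.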

How the data were processed

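RNA from 6 libraries, 3 per sort, was read from a table of raw counts that the authors made with featureCounts 1.5.2, per the file headers: reads rather than pairs, unstranded, on Ensembl release 90 models of GRCm38, without multi-mapping or ambiguous reads. STAR 2.4.1d is named in the submitters' processing notes. Gene length, in the deposited table as another column, is the union of exons. Symbols came from a GENCODE release M21 table (52403 of 52636 identifiers matched).

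Tests used edgeR 4.0.16 (R 4.3.3): quasi-likelihood F test, robust, TMM, filterByExpr by group, two-sided, adjusted by Benjamini-Hochberg over 15197 genes, threshold 0.05. In simulated counts with the fitted spread, many of the changed genes were missed. A gene that did not pass may therefore still differ. Standard errors come from the F statistic. DESeq2 1.42.0, other scalings, no filter, a replicate block and left-out libraries were alternatives. Depth limits precision, and floors cover counting error only.

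Members and lists were chosen with earlier results of these data known. Named genes were the 10 chains, up to 4 genes per list past the threshold each way or else the 2 most abundant, and the 5 best correlated genes (at least 10 CPM). Icam1, Madcam1, Cdh1, Nrros, Ltbp2, Fermt3, Itga2b, Pf4, Ppbp, Cd3e, Trac, Cd8a, the mast cell markers and Clec9a were named after their values were seen. 1 adhesion list enters the totals and is not reported here. Deviations of same-numbered libraries from group means correlated at 0.38, 0.34 and 0.19 across genes (not independent replicates). Each of the 6 libraries correlated best with the library of its own number in the other sort. The numbers may therefore pair the libraries, by the data and not the labels. The tests reported are unpaired, with the replicate block as an alternative.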

Additional observations from a re-analysis of the deposited data

How the results depend on the processing

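Counts of genes past the threshold moved most. Against 19 higher and 184 lower over all genes, there were 37 and 282 with no filter, 350 and 1609 by DESeq2, and 0 to 5 and 0 to 159 with 1 library left out. Leaving out both libraries of 1 number, chosen after seeing the data, gave 3 higher and 168 lower for number 1, and 0 and 0 for numbers 2 and 3. With the replicate block there were 0 higher and 53 lower genes, 0 higher and 0 lower chains, and 0 higher and 2 lower genes of the adhesion lists. Called chains, 1 higher and 1 lower, became 0 higher with library size scaling, 2 higher with no filter and by DESeq2, 0 to 1 higher and 0 lower with 1 library left out, and 0 and 0 without both libraries of any number. Called list genes, 0 higher and 5 lower, became 9 lower with no filter, 2 higher and 25 lower by DESeq2, 0 to 6 lower with 1 library left out, and 0 without both libraries numbered 2 or 3. The cause was not tested. Of 126 recomputed log2 fold changes of the chains, 119 kept direction and size and 3 moved in size only. The other 4 turned sign, all for Itgb1: 0.03 with no filter, 0.29 without both libraries numbered 1, and -0.38 to 0.29 with 1 library left out, against -0.06. The ratio of Itga4 to Itgb7 differed by -0.48 to 0.09 and that of Itgal to Itgb2 by -0.13 to 0.12 with 1 library left out. The mean log2 ratio of Itgae to Itga4 in negative libraries turned to -0.04 with no length scaling. The median of all genes moved from -0.05 to 0.05 with no filter. With 3 libraries a group, the smallest exact permutation p is 0.1.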

Other observations

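Several genes differed between the libraries numbered 1 and 2 in the same direction in both sorts, while the libraries numbered 3 parted by sort; they were picked after their values were seen and are given as values. Rap1b, a small GTPase that switches integrins on, stood at 165, 890 and 333 CPM in the negative and 123, 1374 and 1269 CPM in the positive libraries 1, 2 and 3. Fyn, a kinase downstream of integrins, stood at 57.1, 504 and 69.4 CPM and at 22.9, 313 and 269 CPM, and Lamc1, a laminin chain, at 7.62, 38.3 and 6.92 CPM and at 13.1, 45.6 and 39.5 CPM. Each of these genes was low in both libraries numbered 1 and highest of its sort in the libraries numbered 2, as was Itgav. The surfactant gene Sftpc was high in number 1 of each sort, at 366 and 330 CPM, and reached at most 2.33 CPM in the other 4 libraries.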
